A study of Mus musculus with 4 samples.

Results

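The circular RNAs (circRNAs) of Slc8a1 were examined in mouse heart after sham surgery and after ischemia/reperfusion (I/R), an interruption of the blood supply followed by its return. Members were all circRNAs whose host gene label contained Slc8a1. There were 4, of 1046 circRNAs in all, and they held 181 of 7303 back-splice reads. The study profiled total RNA of heart tissue of C57BL/6 mice in 4 libraries, 2 after sham surgery (sham 1 and sham 2) and 2 from a myocardial ischemia-reperfusion injury model (I/R 3 and I/R 4), with no genetic change or drug in the labels. The labels do not give the age of the mice, the duration of ischemia or reperfusion, the part of the heart taken, or whether different animals gave the 2 libraries of a group. The p-values therefore reflect the spread of these libraries alone, which may be technical.

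Slc8a1 encodes NCX1, the sodium-calcium exchanger of the plasma membrane. In cardiac muscle cells it lets sodium into the cell in exchange for calcium and removes the calcium that enters at each beat, and during ischemia and reperfusion it can run in reverse and load the cell with calcium. The gene is also known as the source of an abundant circRNA in heart, made of a single large exon. A circRNA forms when the end of an exon is spliced back to the start of the same or an earlier exon, and it is recognised by reads across that back-splice junction.

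The main Slc8a1 circRNA (mm9 chr17:82047149-82048978, minus strand, exonic, listed in circBase) spanned 1830 bp. In the GENCODE M21 annotation, which uses another build (GRCm38), only 1 pair of exon edges of Slc8a1 lies this far apart, and it belongs to exon 2 of the 11 exons of the transcript used. A minor circRNA (mm9 chr17:81827522-81844933, minus strand, exonic) spanned 17412 bp, the distance from the start of exon 3 to the end of exon 9. Another (mm9 chr17:81807407-81844933, minus strand, exonic) spanned 37527 bp, from exon 3 to exon 10. Between the exon 2 circle and the circles from exon 3 lay 202215 bp in the files, the same distance as between the matched exons in GRCm38. The last member (mm9 chr17:82037672-82037818) spanned 147 bp on the opposite strand, was placed in an intron by the files, and matched 0 pairs of exon edges. The sources used here do not say whether the authors' counting used strand.

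The junctions are what the reads were counted on, so their sequences are shown as 15 bases on each side, read from the GENCODE M21 transcript, 5′ to 3′, with the exon end on the left in lower case and the exon start it was joined to in capitals. The linear join of exon 2 to exon 3 is given for comparison. It shares its left part with the exon 2 circle and its right part with both circles that start at exon 3.
Exon 2 joined back to exon 2: gaacgatgaaatagtGTTGGAGCAGTTGGA
Exon 9 joined back to exon 3: tcactgtcagcgctgCAAAACAATATCAGT
Exon 10 joined back to exon 3: gaacctcggtgccagCAAAACAATATCAGT
Exon 2 joined to exon 3 (linear): gaacgatgaaatagtCAAAACAATATCAGT

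Exon 2 is the longest exon of the transcript. The next longest, exon 11, has 544 bases. Exon 2 holds 31 bases of 5′ UTR, then the start codon of NCX1, and 1799 coding bases, or 61.8% of the coding sequence. The coding part opens as follows, with the start codon in capitals.
Start of the coding sequence: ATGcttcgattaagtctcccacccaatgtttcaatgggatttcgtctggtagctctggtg
Since 1830 bases make 610 whole codons, the reading frame of the start codon returns to itself after 1 turn of the circle. It held 0 stop codons in that turn, against 34 and 43 in the other two frames. This describes the sequence of the exon, and translation was not measured. A single exon was not the usual form of circRNA here. Of 951 circRNAs placed in exons, 60 (6.3%) had a span equal to the length of 1 annotated exon of their host. The match was by length only, and positions were not compared. Their median span was 539 bp, and 8 of them were longer than the Slc8a1 exon. The exon 2 circle had the most reads of the 60, whose median was 4 reads over the 4 libraries.

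**Figure D1:**
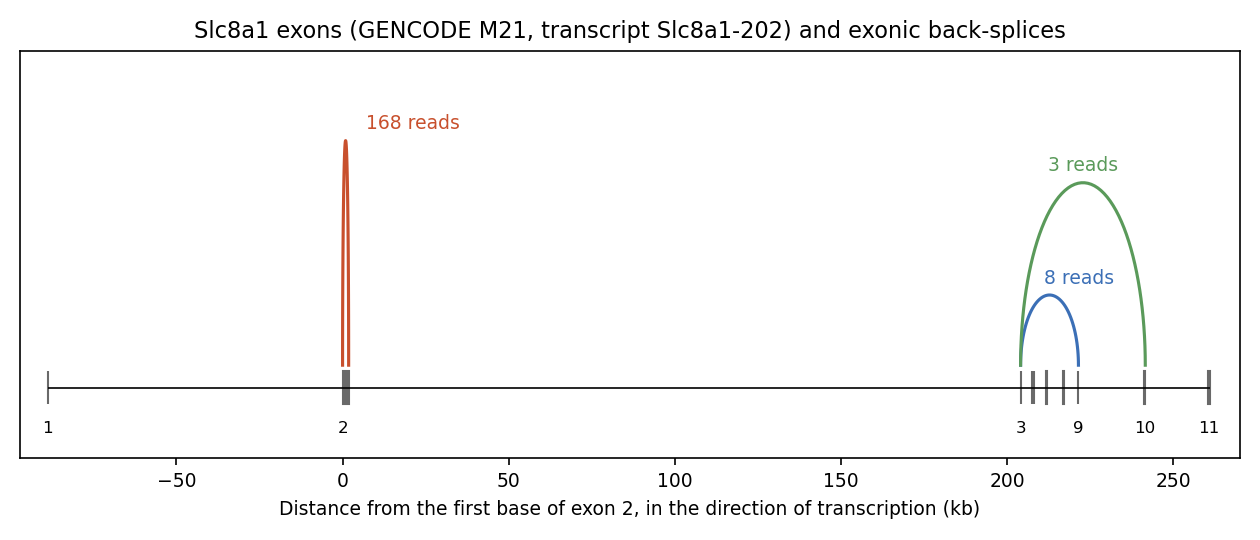
Exons of Slc8a1 (boxes, numbered along the transcript) by distance in kb from the first base of exon 2, with an arc for each exonic back-splice and its reads summed over the 4 libraries. The exon 2 circle carried 168 reads, and the circles from exon 3 to exon 9 and exon 10 carried 8 and 3; arc heights have no scale.

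Depth set the limits. The libraries held 1627 to 1982 back-splice reads, and the smallest listed count was 2. A circRNA that is not listed in a library was therefore taken to have had 0 or 1 read there. Other rules for listing a circRNA are not known. Of the marker lists used to check the tissue, cardiac muscle cell genes gave 45 circRNAs, most reads coming from Ttn, the giant sarcomere protein titin, while endothelial genes gave 2, both of Pecam1, and fibroblast and leukocyte genes gave 0. The cardiac muscle circRNAs came from 4 of 10 listed genes (Myh7, Actc1, Tnni3, Mybpc3, Pln and Actn2 had 0), and their reads numbered 163 in sham 1, 91 in sham 2, 195 in I/R 3 and 300 in I/R 4. Ttn gave 137, 65, 181 and 277 of these reads in the same order, so the higher I/R sums came from Ttn. The reads of Ryr2 numbered 20, 13, 11 and 21, those of Myh6 3, 7, 3 and 2, and those of Tnnt2 3, 6, 0 and 0. Those of Pecam1 numbered 4, 2, 4 and 3 in the same order. The lists count circRNAs and not expression of the genes, so 0 circRNAs does not show that a cell type was absent. In heart tissue, fewer cells of a type and less RNA per cell cannot be told apart.

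The exon 2 circle was listed in every library, with 23 back-splice reads in sham 1, 41 in sham 2, 38 in I/R 3 and 66 in I/R 4. As a share of all back-splice reads of the library, that was 1.22% (95% Clopper-Pearson interval 0.773 to 1.82) in sham 1 and 2.52% (1.81 to 3.40) in sham 2. In I/R 3 it was 2.11% (1.49 to 2.88) and in I/R 4 it was 3.33% (2.58 to 4.22). The intervals cover counting error only: the labels name no molecular identifiers, so reads need not be independent molecules. The groups overlapped: sham 1 was the lowest and I/R 4 the highest, while sham 2 lay above I/R 3, and neighbours in this order had overlapping intervals. In counts-per-million (CPM) of all back-splice reads, the mean was 18685 ± 9214 for sham and 27182 ± 8652 for I/R (SD, n = 2, exact two-sided permutation p = 0.667; 2 libraries against 2 cannot give less than 0.333). Sham 2 was 2.07-fold above sham 1, more than the 1.45-fold difference of the group means. Both I/R libraries lay above both sham libraries for 17.7% of the 158 circRNAs tested below and below them for 20.9% (17.1% and 20.3% after TMM, edgeR's scaling for library composition). By reads, the circle ranked 9th, 3rd, 5th and 3rd among the 467, 403, 391 and 444 circRNAs listed, in the order of libraries above.

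A fit over all circRNAs asked whether the exon 2 circle differed between I/R and sham. edgeR's quasi-likelihood test covered 158 circRNAs with at least 10 reads, of which 0% passed an adjusted p of 0.05, and 9 had an unadjusted p under 0.05. DESeq2 passed 0 with 6, and limma-voom 0 with 7. For the exon 2 circle the log2 fold change was 0.72 (SE 0.55, edgeR adjusted p = 0.920), the 37th highest of the 158. The value rested on single libraries: it was 0.35 without sham 1 and 0.21 without I/R 4. In the authors' deposited table, made without a filter on reads, the circle had a log2 fold change of 0.65 and an adjusted p of 0.0836, 15th of 1046 by p, while 1.05% of its circRNAs had an adjusted p under 0.05. These values equalled those of limma-voom on the unfiltered counts for I/R over sham.

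**Figure D2:**
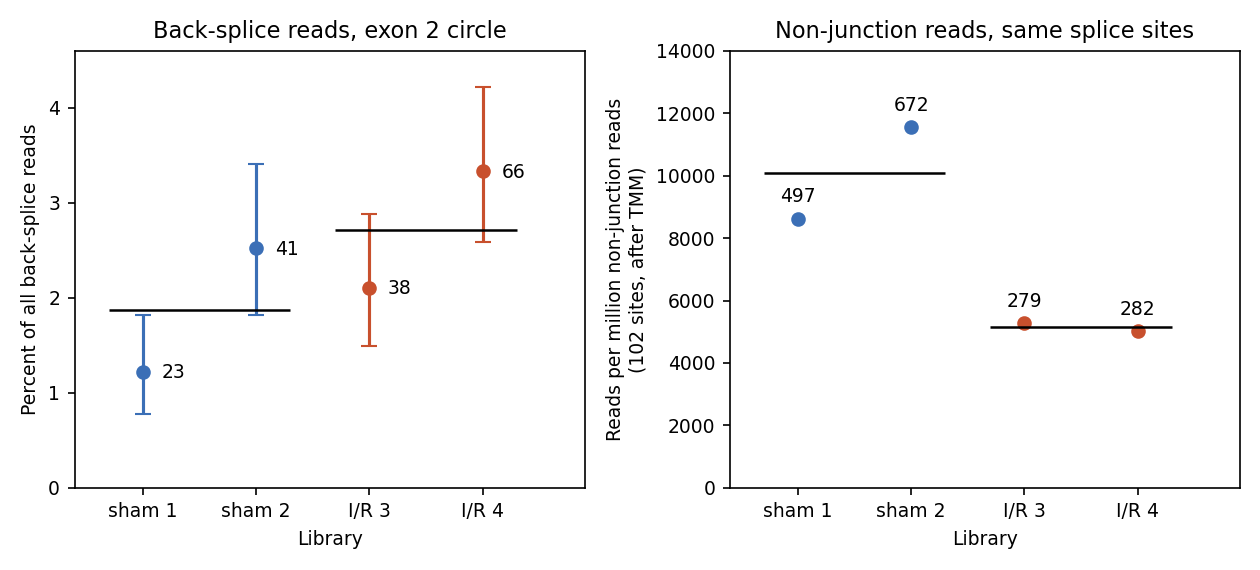
Left, the exon 2 circle as a percent of all back-splice reads of each library, with 95% Clopper-Pearson intervals and the read count beside each point; right, non-junction reads at its splice sites as reads-per-million (RPM) at the 102 sites listed in all 4 libraries, after TMM scaling, with the read count above each point. Lines are group means; back-splice values overlap between the groups (sham 2 lies above I/R 3), while both I/R libraries lie below both sham libraries for non-junction reads.

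The minor junctions had 13 reads in all. The circle from exon 3 to exon 9 was listed with 4 reads in sham 2, 2 in I/R 3 and 2 in I/R 4. The circle from exon 3 to exon 10 had 3 reads, all in I/R 4, and the intronic span on the opposite strand had 2, both in sham 2. Sham 1 listed none of the 3 minor junctions, which at its 1890 reads allows a share of up to 0.195% for each (upper Clopper-Pearson bound at a count of 0; the list minimum means that 1 read is also possible). None of the minor junctions had the 10 reads needed for the test, so no change between the groups was detectable for them at this depth. In the authors' deposited table their adjusted p-values were 0.658 for the circle to exon 9, and 0.524 both for the circle to exon 10 and for the intronic span, a value shared by 775 circRNAs of that table.

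Nearly all circular reads of the gene came from the exon 2 circle, 92.8% over the 4 libraries (Clopper-Pearson interval 88.0 to 96.1). It held 100% in sham 1 (85.2 to 100), 87.2% in sham 2 (74.3 to 95.2), 95% in I/R 3 (83.1 to 99.4) and 93.0% in I/R 4 (84.3 to 97.7). All of these intervals overlapped. It was taken as the main circle because it had the most reads, so its dominance is a description. Summed over its junctions, Slc8a1 had 23 reads in sham 1, 47 in sham 2, 40 in I/R 3 and 71 in I/R 4, the third most of 709 host genes. The summed log2 fold change was 0.66 (SE 0.57, edgeR adjusted p = 0.922), and 0% of 154 hosts passed, with 8 at an unadjusted p under 0.05. DESeq2 passed 0 hosts with 6, and limma-voom 0 with 5. Without sham 1 the summed value was 0.19, without sham 2 it was 1.29, without I/R 3 it was 1.02 and without I/R 4 it was 0.24.

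The files also count non-junction reads, taken here as those at the same splice sites that do not cross the back-splice. The sources used here name no circRNA caller, so the counting rule is not known. These reads can come from the linear Slc8a1 RNA. Whether they include reads from the circle that do not reach the junction is not known. At the exon 2 circle there were 497 non-junction reads in sham 1, 672 in sham 2, 279 in I/R 3 and 282 in I/R 4. Both I/R libraries lay below both sham libraries. As RPM (relative to all non-junction reads) at the 102 sites of circRNAs listed in all 4 libraries, after TMM scaling, the level was 8606 in sham 1, 11551 in sham 2, 5264 in I/R 3 and 5009 in I/R 4, with means of 10079 ± 2082 (SD, n = 2) for sham and 5136 ± 181 (SD, n = 2) for I/R. I/R stood at 0.510 of sham (two-sided exact permutation p = 0.333, the least that 2 against 2 allow). Both I/R values lay below both sham values at 31.4% of the 102 sites and above them at 27.5%.

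Non-junction reads at exon 2 fell in the fit over the 102 sites (log2 fold change -0.97, SE 0.18, edgeR adjusted p = 3.37e-05). That adjusted p was the smallest of the settings tried. In edgeR it was 0.00554 with DESeq2's size factors and 0.00982 without TMM. DESeq2 gave 0.0116 and limma-voom 1.00e-04. The fold change of -0.97 was the lowest of the 102. Of the sites, 8.82% passed the threshold of 0.05 in either direction, 4.9% lower and 3.92% higher in I/R. Those called lower included Slc8a1, Dysf, Map4k2 and Nfkb1, and those called higher were at Cpeb3, Rabep1, Mlip and Tmem245. The call was lost without sham 2, the library with the highest level (log2 fold change -0.72, edgeR adjusted p = 0.0597), and held without each of the other libraries. Without TMM scaling the median of all sites moved by -0.20, and Slc8a1 lay 0.95 below that median, against 0.94 below it with TMM. The 3 sites with the most reads, those of Tpm1, a chromosome 14 span without a host gene and Ttn, took 55.7% to 64.3% of the non-junction reads of a library. Without them the Slc8a1 value was -0.95 (edgeR adjusted p = 0.0104).

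The minor circles give non-junction reads at other Slc8a1 splice sites. At the circle from exon 3 to exon 9 these were 562 in sham 2, 314 in I/R 3 and 331 in I/R 4, or 9660, 5924 and 5879 RPM on the same scale. Both I/R libraries were below sham 2, the one sham library in which the site was listed. Sham 2 also had the highest level at exon 2. With 1 sham value this difference has no replicate check. At the circle to exon 10 there were 268 in I/R 4, and at the intronic span 213 in sham 2. The level at exon 3 to exon 9 stood at 0.836 of that at exon 2 in sham 2, and at 1.13 and 1.17 of it in I/R 3 and I/R 4. The sites share their libraries and their gene and are not independent replicates.

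The circular share combines both counts, as 2 times the back-splice reads divided by the sum of that number and the non-junction reads. It was 8.47% in sham 1, 10.9% in sham 2, 21.4% in I/R 3 and 31.9% in I/R 4, with both I/R libraries above both sham libraries. The means were 9.67 ± 1.70% for sham and 26.6 ± 7.41% for I/R (SD, n = 2), a 2.75-fold difference (two-sided exact permutation p = 0.333, the least that 2 against 2 allow). In reads, there were 21.6 and 16.4 non-junction reads for each back-splice read in sham 1 and sham 2, and 7.34 and 4.27 in I/R 3 and I/R 4. Both I/R shares lay above both sham shares at 30.4% of the 102 sites and below them at 16.7%. Summed over all listed Slc8a1 junctions the share was 8.47% in sham 1, 6.10% in sham 2, 11.9% in I/R 3 and 13.9% in I/R 4, and the means differed by 5.60 percentage points in place of 17.0. These sums cover 1, 3, 2 and 3 junctions in that order, and a minor site adds its non-junction reads only where it is listed, so they are not comparable between libraries. The median share of the 102 sites was 9.42%, 11.11%, 11.75% and 11.03% in the same order, and by share the exon 2 circle stood 58th, 53rd, 37th and 22nd of the 102. The minor junctions had low shares throughout: 1.40%, 1.26% and 1.19% in sham 2, I/R 3 and I/R 4 for the circle to exon 9, 2.19% in I/R 4 for the circle to exon 10 and 1.84% in sham 2 for the intronic span.

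**Figure D3:**
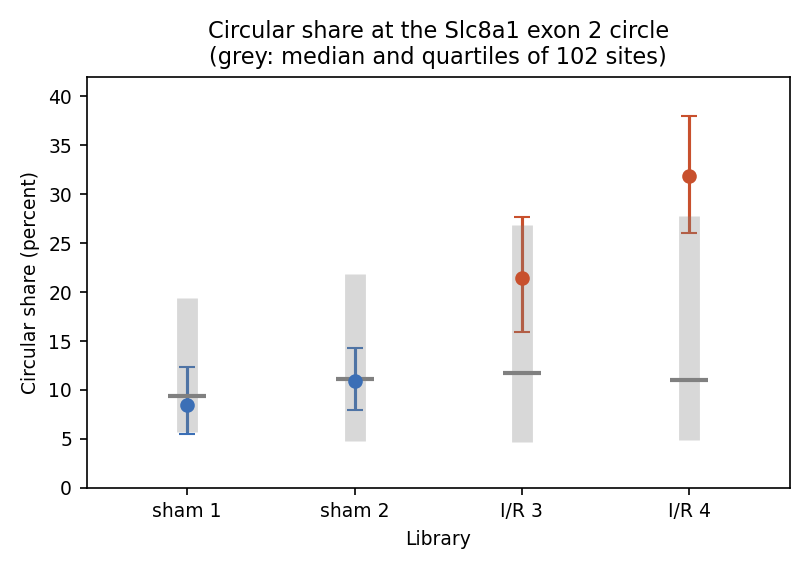
Circular share of the exon 2 circle in percent for each library (points, with intervals transformed from 95% Clopper-Pearson intervals of back-splice reads among both read kinds), beside the median (grey line) and quartiles (grey bar) of the 102 sites. Both sham shares, 8.47% and 10.9%, lie near the median, and the I/R shares, 21.4% and 31.9%, lie above it.

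A fit of back-splice against non-junction reads over the 102 sites, with the library as a block, gave a log2 ratio change of 1.65 for the exon 2 circle (SE 0.32, edgeR adjusted p = 0.0484). It was the highest of the 102 and the one site that passed, 0.98% of them. This call lies at the threshold. The adjusted p was 0.0517 (edgeR) when the total over all circRNAs was used as the library size of the back-splice reads, and 0.211 in limma on the log2 ratio of the reads. The call was also lost when any one of the 4 libraries was left out, the log2 ratio change then ranging from 1.19 without I/R 4 to 2.03 without I/R 3. The direction was the same in each of these fits. Of the 2 components, the fall of the non-junction reads passed its own test and the back-splice change did not. Their log2 fold changes were -0.97 (SE 0.18) and 0.72 (SE 0.55). The sizes of the 2 were not tested against each other.

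**Figure D4:**
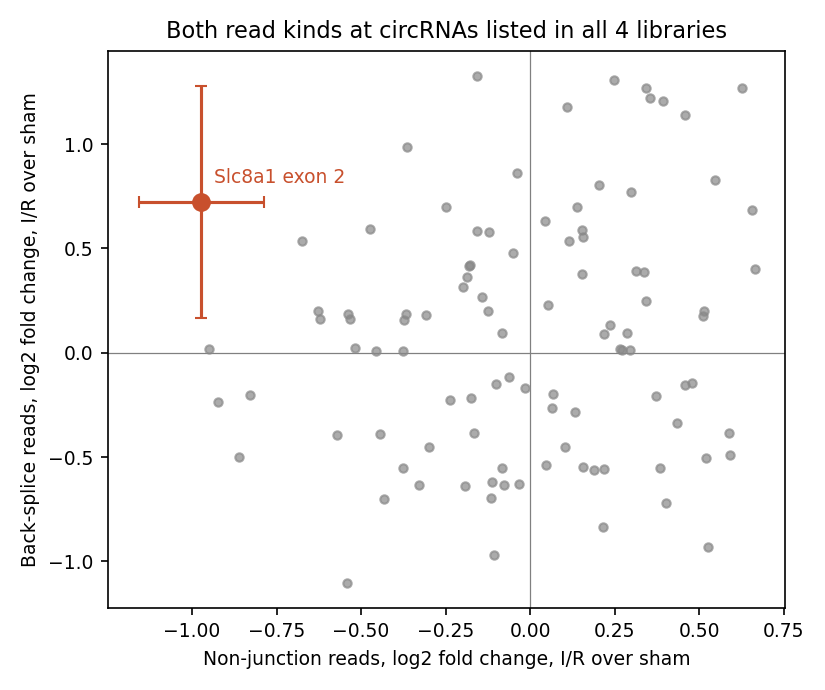
Log2 fold change (I/R over sham) of non-junction reads (x axis) and of back-splice reads (y axis) at 100 sites listed in all 4 libraries and tested for both, with SE bars for Slc8a1. The exon 2 circle lies at -0.97 and 0.72, at the left edge of the 28 sites with back-splice values above 0 and non-junction values below 0.

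Set beside the other sites, 28 of 100 had back-splice values above 0 with non-junction values below 0, 30 had both above 0, 23 both below 0 and 19 the reverse. By closeness of pattern over the 4 libraries (Euclidean distance of centred log2 values, 0.5 reads added), the 3 circRNAs nearest to the exon 2 circle in back-splice reads, of 18 compared, were those labelled Gm21992/Rbm4 (distance 0.71; 8, 8, 7 and 17 reads in the order of sham 1, sham 2, I/R 3, I/R 4), Strn3, a striatin scaffold protein (0.74; 31, 52, 56 and 50 reads), and Nfix, a transcription factor (0.79; 13, 14, 22 and 21 reads). The median distance was 1.22. In non-junction reads, of 67 sites compared, the nearest were Dysf, a membrane repair protein (distance 0.27; 164, 189, 96 and 79 reads) and Map4k2, a protein kinase (0.32; 100, 120, 61 and 46), against a median of 1.13. Both sites were among those called lower above. With 4 libraries these distances are descriptions.

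The other calcium and sodium handling genes were taken from a list of 71 that includes Slc8a1 and shares Ryr2 and Pln with the cardiac muscle list, of which 10 hosted a circRNA, 26 circRNAs in all. In back-splice reads 8 of the 26 had enough reads for the test. None of the 8 passed in edgeR (0 at an unadjusted p under 0.05), in DESeq2 (0) or in limma-voom (0), beside 0% of all tested. Of the 8, 5 lay above 0, with a median log2 fold change of 0.50, against a median of 0.06 for the 158. The 5 above 0 were Slc8a1 itself, 3 circRNAs of Ryr2 and that of Trpc6. Among the release and uptake machinery of the sarcoplasmic reticulum, the calcium store of muscle, Ryr2, the calcium release channel, had 3 tested circRNAs. In the order of sham 1, sham 2, I/R 3, I/R 4, they had 5, 4, 5 and 7 reads, 3, 3, 2 and 7 reads, and 2, 4, 2 and 7 reads. Asph, whose locus also encodes junctin of the release complex, had 18, 17, 16 and 14 reads. Atp2a2, the SERCA2 pump that refills the store, had 6, 0, 2 and 2. Among channels of the plasma membrane, Cacna1c, the L-type calcium channel through which calcium enters, had 7, 4, 0 and 2 reads, and Trpc6, a cation channel, 0, 4, 5 and 3. In each library, no circRNA of the list had more reads than the exon 2 circle of Slc8a1.

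Non-junction reads could be compared at 5 of these circRNAs. Slc8a1 was the 1 that passed (edgeR; 2 at an unadjusted p under 0.05), beside 8.82% of all sites, and its call was lost without sham 2, as given above. It was also the 1 that passed in DESeq2 and in limma-voom, beside 3 and 13 of the 102 sites. At the Ryr2 sites the log2 fold changes in edgeR were -0.18 (SE 0.20), -0.12 (SE 0.19) and -0.16 (SE 0.19), and at Asph 0.37 (SE 0.18, edgeR adjusted p = 0.181). Asph non-junction reads were 473 and 498 in sham and 556 and 631 in I/R, so both I/R libraries lay above both sham libraries in raw reads. After TMM scaling, both I/R libraries lay above both sham libraries at 27.5% of the 102 sites. They lay below both, as at Slc8a1, at 31.4%. The circular share of Asph was 7.07%, 6.39%, 5.44% and 4.25%, lower in both I/R libraries, as at 16.7% of the 102 sites. That of the exon 2 circle was higher in both, as at 30.4% of the sites. One Ryr2 circRNA also had both I/R shares (0.95% and 1.14%) above both sham shares (0.75% and 0.58%), and at the other Ryr2 circRNAs the groups overlapped. The log2 ratio changes were 0.57 (SE 0.52), 0.67 (SE 0.68) and 0.71 (SE 0.70) at the Ryr2 circRNAs and -0.62 (SE 0.32) at Asph, and none of these passed. Of the 5 ratios in the list, 4 lay above 0, with a median of 0.67, against 0.07 for the 102 sites. The 4 above 0 were Slc8a1 itself and the 3 circRNAs of Ryr2, 2 of which share a splice site. The Ryr2 shares ranged from 0.35% to 2.03% over its 3 circRNAs and 4 libraries, all below every share of the exon 2 circle. In the cardiac muscle cell list, 7 sites were compared in non-junction reads, none passed, beside 8.82% of all sites, and 1 lay above 0 (median log2 fold change -0.16, against -0.04 for the 102). In back-splice reads 7 of its 9 tested circRNAs lay above 0 (median 0.58, against 0.06 for the 158), and in the ratio 6 of 7 did (median 0.57, against 0.07), with none passed in either, beside 0% and 0.98% of all features. All 7 sites lay in Ttn or Ryr2, and the 3 Ryr2 sites are in both lists. Circles of the same gene are not independent members. Back-splice reads of the cardiac muscle list, given above, also differed between libraries, and their part in the Slc8a1 values was not tested.

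**Figure D5:**
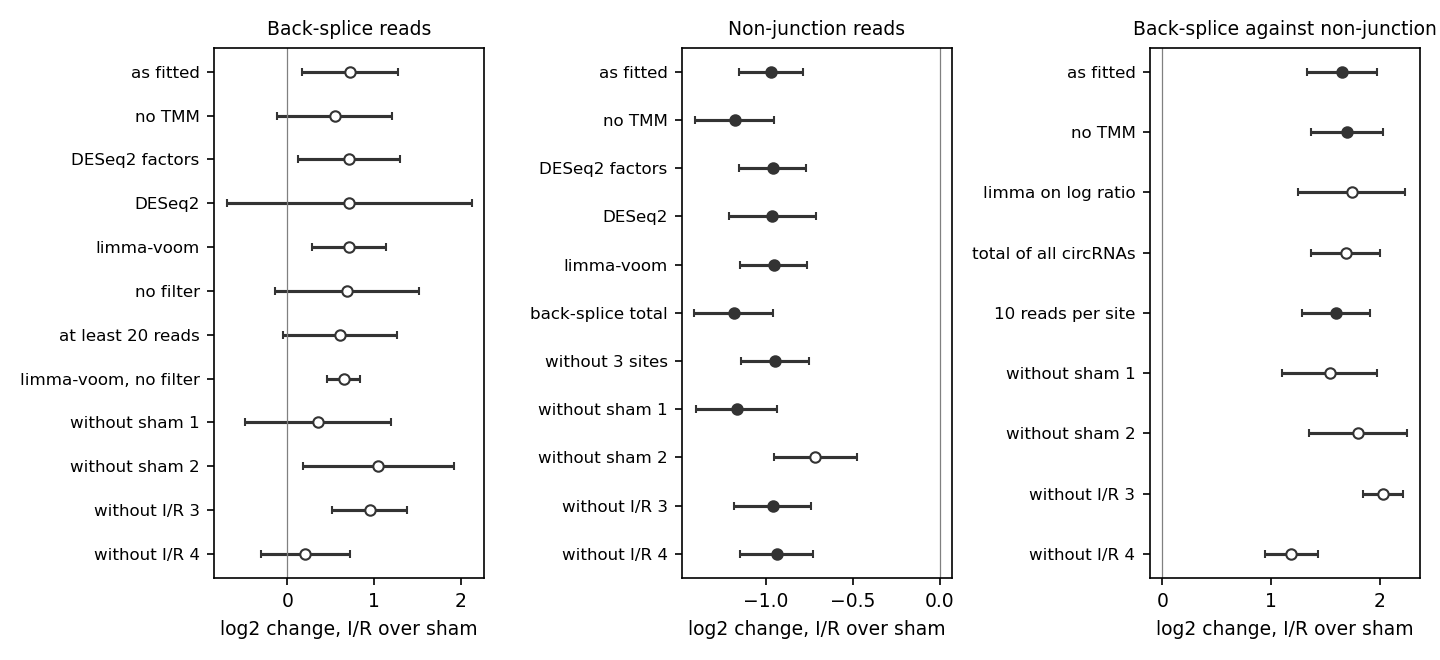
Log2 change (I/R over sham, with SE) of the exon 2 circle in back-splice reads, in non-junction reads and in back-splice against non-junction reads, under each setting tried. Filled points passed an adjusted p of 0.05: none for back-splice reads, all settings but the one without sham 2 for non-junction reads, and 3 settings for the ratio.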

How the data were processed

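The authors deposited, per library, counts of back-splice reads and of non-junction reads for each circRNA, and a fraction equal to the circular share defined above (largest deviation 0.0005), per the file headers and the values. Their merged matrix held the same counts (0 cells differed). The authors' deposited table of their own comparison gives log2 fold changes, p-values and score columns; its contrast is not stated, and its values for the exon 2 circle equalled those of limma-voom on the unfiltered matrix for I/R over sham. The submitters' processing notes name mm9, HTSeq 0.9.1 and BWA 0.7.5a-r405; the sources used here name no circRNA caller.

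Here, edgeR 4.0.16 (R 4.3.3) tested I/R against sham with TMM factors and Benjamini-Hochberg adjustment over all features: circRNAs and hosts with at least 10 reads in all, listed in at least 2 libraries, and the 102 sites listed in all 4 for non-junction reads and for the read ratio. The SE given for edgeR fits, also in the figures, is the absolute log2 fold change divided by the square root of the F statistic. DESeq2 1.42.0 and limma 3.58.1 were alternatives. Fits were tested on simulated data with set dispersions. The simulated back-splice and ratio changes were at least 4-fold, larger than those of the main fits for the exon 2 circle. Recovery of changes as small as these was not tested. Library totals of 1627 to 1982 back-splice reads limit precision. Single values per library were compared with exact permutation tests. Named were all Slc8a1 rows, the tested circRNAs of the calcium and sodium list, and the 3 nearest in pattern per read kind, of which 1 is not reported here; Tpm1 and the chromosome 14 site, as largest sites, the other called non-junction sites (Nfkb1, Cpeb3, Rabep1, Mlip and Tmem245) and the marker genes were named after their values were seen. The members, the lists and the tests were chosen with earlier results of these data known. Sequences and exon lengths come from GENCODE M21 transcripts; no coordinates were converted between builds.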

Additional observations from a re-analysis of the deposited data

How the results depend on the processing

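No paired analysis was possible because the groups share no replicate number. Back-splice reads of the exon 2 circle did not pass in any of 11 alternatives and kept their direction. Their log2 fold change of 0.72 ranged from 0.54 to 0.71 over other scalings, filters and tools and from 0.21 to 1.05 without a library, with adjusted p from 0.0836 (limma-voom without a filter) to 0.9995 (DESeq2). Calls over all circRNAs were 0, against 3 in edgeR and 11 in limma-voom on the unfiltered counts, and 1 when sham 1 or I/R 3 was left out. The Slc8a1 sum, 0.66, ranged from 0.51 to 0.70 and from 0.19 to 1.29 without a library; calls over all hosts were 0, and 1 in edgeR without a filter and when sham 1 or I/R 4 was left out. Unfiltered limma-voom gave 0.82 for the sum, but that fit was degenerate (1 host at an adjusted p of 7.12e-301) and is not read. Non-junction reads, at -0.97, ranged from -1.19 to -0.95 and passed in all 6 other settings; without a library they ranged from -1.17 to -0.72, and the call was lost only without sham 2 (adjusted p = 0.0597). Calls over the 102 sites were 9, and 4 without TMM, 5 with DESeq2's factors, 3 in DESeq2, 13 in limma-voom, 5 by back-splice totals and 4 without the 3 largest sites; leaving out sham 1, sham 2, I/R 3 or I/R 4 gave 7, 2, 8 or 1. The ratio change, 1.65, passed in 2 of 8 alternatives: without TMM (1.70) and at sites with at least 10 non-junction reads (1.60). It did not pass in limma (1.74) or by the total over all circRNAs (1.69, a setting chosen after seeing the data), nor without a library (1.19 to 2.03, adjusted p from 0.0672 to 0.963). The cause was not tested. The difference in circular share, 17.0 percentage points, was 10.4 without the factor 2 and 5.60 over all listed junctions (different junctions in each library, so not comparable), and 11.7 to 22.2 without a library. The difference in the Slc8a1 share of back-splice reads, 0.847 points, was 1.15 without Ttn, 1.74 among circRNAs in all 4 libraries and 0.011 to 1.68 without a library. With 1 read in place of each unlisted count, the exon 2 circle held 89.4% of the Slc8a1 reads. The calcium and sodium list had 0 calls without a filter too. When a library is left out, the lone library of its group is assumed to vary like the other group.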

Other observations

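Read names gave the back-splice reads of the exon 2 circle all 4 lane numbers in every library. There were 4 to 8 reads per lane in sham 1, 9 to 11 in sham 2, 7 to 11 for I/R 3 and 10 to 22 for I/R 4. Whether the libraries shared a sequencing run was not examined. Of the 181 read names of the 4 Slc8a1 junctions, 0 occurred more than once.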
